A study of Mus musculus with 60 samples.

Results

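Expression of glycan-related genes was compared between thyroid of mice labelled as St6galnac2 knockout (KO, -/-) and thyroid of mice labelled wild type (WT, +/+). All arrays labelled ST6GALNAC2 KO thyroid or ST6GALNAC2 WT thyroid were used, which gave 6 of the 60 arrays of the study, 3 of each genotype and 1 per animal. The study screened tissues of this line and of a B4galnt1/B4galnt2 double knockout line to choose tissues for glycan analysis. The KO arrays came from males 9361 and 9100 and female 9093, and the WT arrays from males 9362 and 9099 and female 9094. All 6 animals were labelled healthy, with no treatment named. Their age, strain background, the allele and the deleted exons are not given in the sources used here. Each value is a log2 expression value that the authors computed from total RNA, so a difference of 1 is a doubling, and 962 probe sets of 908 genes could be named.

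St6galnac2 encodes a sialyltransferase of the Golgi apparatus that adds sialic acid to the N-acetylgalactosamine (GalNAc) at the base of mucin-type O-glycans. GalNAc is first placed on serine or threonine by polypeptide GalNAc transferases, and it is then extended by galactose or capped by sialic acid. Lectins read the result: siglecs bind sialic acid, and the asialoglycoprotein receptor binds galactose or GalNAc that sialic acid leaves exposed. In thyroid, the follicular cells make thyroglobulin, a heavily glycosylated and sialylated protein, and they lie beside calcitonin-secreting C cells and the parathyroid glands.

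The transcript of the targeted gene was not lower in the arrays labelled KO. The St6galnac2 probe set read 5.77, 5.49 and 5.94 in WT animals 9362, 9099 and 9094, and 5.79, 5.97 and 6.27 in KO animals 9361, 9100 and 9093. The genotypes overlapped, and the KO minus WT difference was 0.28 ± 0.16 (SE, n = 3 per genotype, limma adjusted p = 0.989). Thyroid read low for this gene in both genotypes beside most other tissues, though above the 25th percentile of all values, 4.21. Whether a decrease could be read at this level was not tested. The thyroid median was 5.86, against 5.48 over all values, 9.08 in kidneys and 12.35 in testes, and only brain had a lower tissue median (5.71). In the same line, intestine read 8.65 to 8.74 in 2 KO arrays and 5.67 to 8.77 in 3 WT arrays, and brain 5.49 to 5.71 in 3 KO arrays and 5.67 to 8.49 in 4 WT arrays. The lowest WT intestine array reads at the level of brain and the highest WT brain array at the level of intestine, so these tissues give no direction here. Whether the probes lie inside the deleted part of the gene is not given in the sources used here, so the transcript does not check the genotype labels. Every direction below therefore rests on the labels alone.

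Each thyroid array matched its tissue. After the mean over tissues was removed, the 6 arrays correlated with the mean of the other thyroid arrays at 0.758 to 0.895 and with the next tissue, thymus or mammary glands, at 0.253 to 0.371. The array medians lay between 5.42 and 5.63. None of 16 markers of follicular cells and none of 15 markers of skeletal muscle is measured by a named probe set, so these could not be read. Of 16 markers of C cells and parathyroid, Chga alone was measured, and of 12 cartilage markers, Acan alone.

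In KO against WT thyroid, 0 of 962 named probe sets (0%) passed an adjusted p of 0.05 (limma, sex as covariate, Benjamini-Hochberg adjustment). The smallest adjusted p was 0.186. At an unadjusted p under 0.05 there were 42 probe sets, which is 4.37% of those tested, with 14 higher (1.46%) and 28 lower (2.91%) in KO. That split depended on scaling, since centring each array on its median gave 27 higher and 22 lower. The median KO minus WT difference over all named probe sets was -0.01 and the median absolute difference 0.13. The median range among the 3 animals of a genotype was 0.40 in WT and 0.44 in KO. A difference of at least 1 in size was reached by 4 probe sets: Chga, Fgfr2, Asgr1 and Prol1. In the plot of difference against p, Chga lies alone at the far left.

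**Figure D1:**
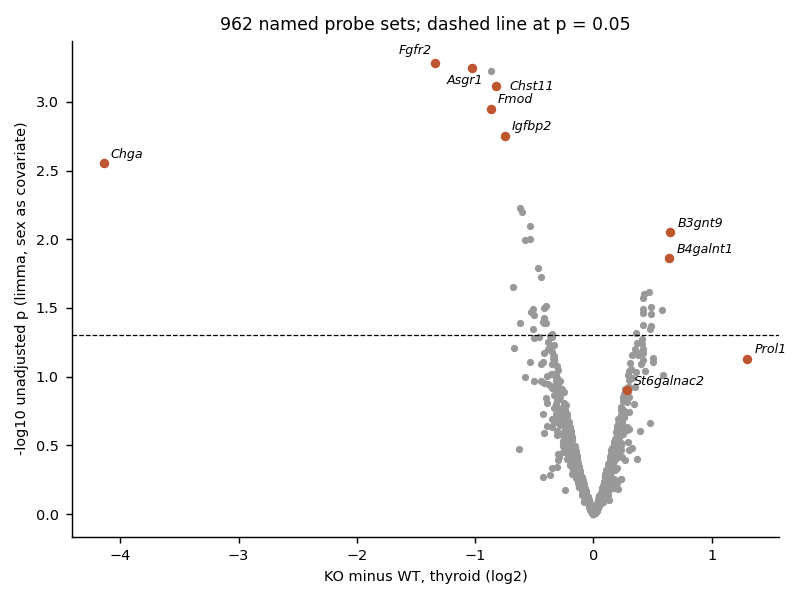
KO minus WT difference in thyroid (log2, x axis) against -log10 of the unadjusted limma p (y axis) for all named probe sets, with named genes in colour and a dashed line at the 0.05 level. Chga sits at -4.14, and Fgfr2, Asgr1, Chst11, Fmod and Igfbp2 stand highest on the y axis among the labelled genes, all on the lower side.

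The animals carry neighbouring numbers across genotype: 9361 with 9362, 9100 with 9099, and 9093 with 9094. Deviations from the genotype mean correlated within these pairs at 0.60, 0.53 and 0.67 across probe sets, so the numbers were also used as a block. The labels do not say that they mark litters, and the female pair takes up the whole sex difference. With the pairs as a replicate block, 1 probe set was called (0.104%), Asgr1, and 82 had an unadjusted p under 0.05, of which 29 were higher and 53 lower. With the block and each array centred on its median, a setting chosen after the values were seen, 7 probe sets were called (0.728%): Chga, Fgfr2, Asgr1, Chst11, Fmod, Igfbp2 and 1 of the pair of probe sets for Tenm4. All 7 were lower in KO.

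The promoters of Chga and Asgr1 are shown because Chga had the largest difference between the genotypes and Asgr1 was the gene called with the block. They are the 250 bases before a transcript start from RefSeq on build GRCm38.p6, plus strand, chr12:102554691-102554940 for Chga and chr11:70053874-70054123 for Asgr1. The Chga window ends at the start of the gene, while the Asgr1 window, the first of 2 entries for that gene, lies inside the interval that RefSeq gives the gene. Capitals mark TGACG, the core of a cyclic AMP response element, searched on both strands (TGACG and CGTCA).
Chga: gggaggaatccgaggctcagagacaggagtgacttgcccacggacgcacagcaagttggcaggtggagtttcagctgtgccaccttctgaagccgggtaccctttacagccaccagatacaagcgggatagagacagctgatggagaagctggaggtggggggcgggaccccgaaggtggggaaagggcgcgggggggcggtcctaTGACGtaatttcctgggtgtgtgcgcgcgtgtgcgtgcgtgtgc
Asgr1: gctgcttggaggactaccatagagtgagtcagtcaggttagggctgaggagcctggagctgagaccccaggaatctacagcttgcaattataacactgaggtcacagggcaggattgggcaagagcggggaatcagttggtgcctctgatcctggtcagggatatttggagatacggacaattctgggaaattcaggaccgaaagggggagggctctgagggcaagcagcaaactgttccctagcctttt
The Chga window holds 1 match and the Asgr1 window 0, and 17.8% of 32851 promoter windows of this length hold at least 1. A match is a run of letters and does not show a bound factor.

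Chga encodes chromogranin A, an acidic protein of the secretory granules of neuroendocrine cells. It read 12.73, 13.06 and 13.02 in WT animals 9362, 9099 and 9094. It read 5.77, 7.79 and 12.83 in KO animals 9361, 9100 and 9093. The low values were those of the 2 KO males alone, and the KO female lay inside the WT range. The difference was -4.14 ± 1.02 (SE, n = 3 per genotype, limma adjusted p = 0.384; 0.210 with the replicate block). Without female 9093 or without female 9094, the same comparison of 2 males per genotype is left. There the difference was -6.12 ± 0.55 and passed the test (limma adjusted p = 0.00419). That fit weighted spread shared by all probe sets at 5.92 degrees of freedom against 2 of the probe set itself. The difference of the KO effect between the sexes was 5.92 ± 0.96 with an adjusted p of 0.134 (limma), which did not pass. In that test 1 of 962 probe sets was called (0.104%), Prol1, and 15 had an unadjusted p under 0.05 (1.56%). Within the pairs the differences were -6.96, -5.27 and -0.19. Their plain standard error was 2.03, against a moderated one of 0.95 in the block fit and 0.60 in the block fit with centring. In the latter, limma weighted spread shared by all probe sets at 21.7 degrees of freedom against 2 of the probe set itself.

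In lymph node the same 6 animals read 5.19 to 5.74 for Chga, so KO male 9361 lay just above that range and KO male 9100 further above it. Brain read 9.30 to 10.67 and intestine 7.34 to 10.29, below the WT thyroids. Because Chga is the sole measured member of the C cell and parathyroid list, whether these cells were fewer in the pieces of 9361 and 9100 was not tested. Fewer cells of a type and less RNA per cell cannot be told apart in bulk tissue, here or for any gene below. Among the 3 measured markers of nerve and Schwann cells the differences lay between -0.38 (Mag) and 0.14 (Gal3st1), with Ugt8a at -0.31, and 0 had an unadjusted p under 0.05.

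Asgr1 encodes the major subunit of the asialoglycoprotein receptor, a lectin best known from liver that clears glycoproteins without terminal sialic acid. It read 5.72 and 5.23 in the WT males and 11.17 in the WT female. It read 4.56 and 4.16 in the KO males and 10.32 in the KO female. Within each sex the KO arrays were the lower, while the genotypes taken whole overlapped because of the females. The difference was -1.03 ± 0.20 (SE, n = 3 per genotype, limma adjusted p = 0.186), and with the replicate block it was called at -1.03 ± 0.14 (adjusted p = 0.0448). The pairs gave -1.16, -1.07 and -0.85. Outside thyroid the highest Asgr1 value on any array was 8.29, in thymus, below both female thyroids.

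Fgfr2, a receptor tyrosine kinase for fibroblast growth factors, showed the same arrangement. It read 6.98, 7.26 and 9.19 in WT animals 9362, 9099 and 9094, and 5.26, 5.49 and 8.67 in KO animals 9361, 9100 and 9093. The 4 males separated by genotype, and the KO female lay above every male. The difference was -1.34 ± 0.25 (SE, n = 3 per genotype, limma adjusted p = 0.186; 0.0663 with the replicate block). In males alone, without 9093 or without 9094, it was -1.75 ± 0.23 and was called (n = 2 per genotype, limma adjusted p = 0.0313).

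Chst11, which sulfates the GalNAc units of chondroitin, read 5.92, 6.27 and 8.01 in WT and 5.29, 5.30 and 7.15 in KO, in the same order of animals. Each KO value was below that of its pair, and the difference was -0.82 ± 0.17 (limma adjusted p = 0.186; 0.0663 with the replicate block). Tenm4, a teneurin adhesion protein of the cell surface, has 2 probe sets that differed by -0.58 ± 0.18 and -0.87 ± 0.17, in the same direction. Asgr1, Fgfr2, Chst11 and Tenm4 were all higher in the female than in the males of each genotype.

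**Figure D2:**
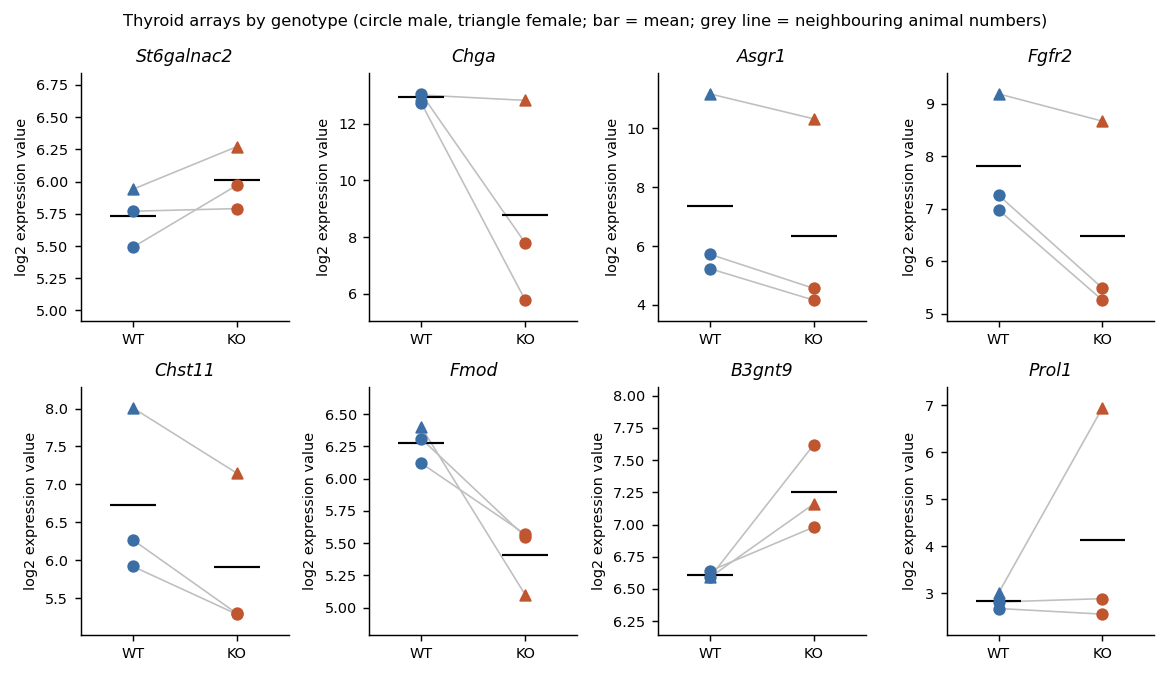
Log2 expression value (y axis) of 8 genes on the 6 thyroid arrays by genotype (x axis), with circles for males, triangles for females, a bar for the genotype mean and grey lines joining neighbouring animal numbers. Chga is low in the 2 KO males alone, Asgr1, Fgfr2 and Chst11 are lower in KO within each line, and Fmod and B3gnt9 separate the genotypes without overlap.

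Fmod read lower in KO in both sexes. Its female minus male difference of -0.14 ± 0.20 did not pass the test (limma adjusted p = 0.844). Fmod encodes fibromodulin, a small leucine-rich proteoglycan that binds collagen fibrils. It read 6.31, 6.12 and 6.40 in WT and 5.55, 5.57 and 5.10 in KO. All 3 KO arrays were below all 3 WT arrays, 1 of 28 probe sets (2.91%) with that pattern, while 42 (4.37%) had the opposite one, 70 in all (7.28%). The difference was -0.87 ± 0.19 (limma adjusted p = 0.215; 0.120 with the replicate block). The other 5 measured genes of the connective tissue list, Dcn, Lum, Bgn, Pdgfra and Col14a1, differed by -0.01 to 0.13. Igfbp2, which binds insulin-like growth factors, read 6.13, 5.95 and 5.46 in WT and 5.37, 5.50 and 4.41 in KO, and differed by -0.75 ± 0.17 (limma adjusted p = 0.284). Its genotypes overlapped, and both females were below the males of their genotype.

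The remaining genes with the smallest p among those lower in KO had smaller differences. Fzd1, a receptor for Wnt proteins, read 6.75, 6.96 and 7.33 in WT and 6.12, 6.03 and 7.02 in KO, a difference of -0.62 ± 0.17. Slc35c1, the GDP-fucose transporter of the Golgi, differed by -0.60 ± 0.17, and Glb1, the lysosomal beta-galactosidase, by -0.54 ± 0.16. Each of these 3 was lower in KO within all 3 pairs, yet the genotypes overlapped. One direction in all 3 pairs was found for 304 of 962 probe sets (31.6%). Clec3a, a C-type lectin-like protein, read 4.94, 5.03 and 4.55 in WT and 4.39, 4.24 and 4.27 in KO, with no overlap and a difference of -0.54 ± 0.17. Csf2ra, a chain of the receptor for granulocyte-macrophage colony-stimulating factor, read 6.07 to 6.47 in WT and 5.70 to 5.94 in KO, with a difference of -0.44 ± 0.15.

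Among genes higher in KO, B3gnt9 had the smallest p. It belongs to a family of transferases that add N-acetylglucosamine to galactose, and it read 6.59, 6.64 and 6.59 in WT and 7.62, 6.98 and 7.16 in KO. The WT arrays spanned 0.06 and all KO arrays were above them. The difference was 0.65 ± 0.20 (limma adjusted p = 0.752; 0.235 with the replicate block). B4galnt1, a ganglioside-synthesising GalNAc transferase that is disrupted in the study's second line and not in this one, read 5.49, 5.10 and 6.24 in WT and 6.35, 5.89 and 6.50 in KO. Its genotypes overlapped, each KO array was above its pair, and the difference was 0.64 ± 0.21 (limma adjusted p = 0.951).

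The other 10 genes with the smallest p on the higher side were Clec18a (0.47), Fgf16 (0.58), Erbb4 (0.42), Bmp10 (0.49), Klra5 (0.42), Timd4 (0.49), Il33 (0.48), Wnt6 (0.36), Il1f8 (0.41) and Sftpd (0.35), each given as the KO minus WT difference. Erbb4 is a receptor for neuregulins, Klra5 a receptor of natural killer cells, Il33 an alarmin cytokine, and Sftpd a secreted collectin. Clec18a, Fgf16, Erbb4, Klra5, Il33, Wnt6 and Sftpd separated the genotypes without overlap, and Bmp10, Timd4 and Il1f8 did not. Of 962 named probe sets 42 (4.37%) had that pattern, and a small p on the same arrays favours it. Most of the 10 genes read low. Il33 alone had a thyroid mean (7.71) above the median of all values (5.48). Fgf16 (3.45), Erbb4 (4.11) and Il1f8 (3.63) lay below the 25th percentile, 4.21. Il33 read 7.72, 7.66 and 7.03 in WT and 7.76, 8.02 and 8.06 in KO, so its gap between genotypes was smaller than its spread within WT, and for Fgf16 the nearest arrays read 3.46 in WT and 3.47 in KO. Without 1 animal, Il33 went to 0.20 and Il1f8 to 0.27 (without 9093 or 9094), Fgf16 to 0.31 (without 9361) and Bmp10 to 0.31 (without 9362). The heat map of the 24 genes shows that the lower group carries larger deviations than the higher group.

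**Figure D3:**
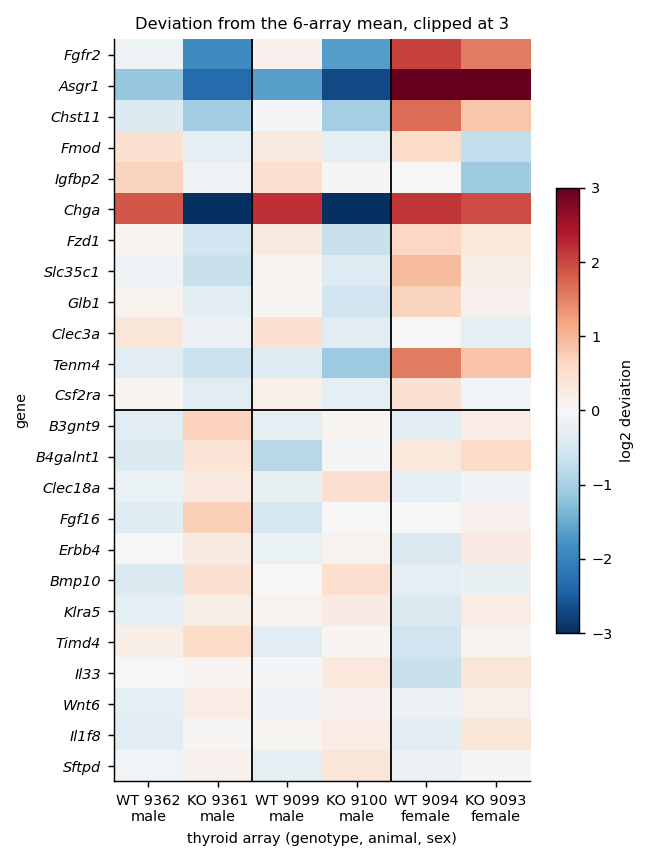
Log2 deviation of each thyroid array (columns, in pairs of neighbouring animal numbers) from the mean of the 6 arrays for the 12 genes with the smallest p on the lower side (above the line) and the 12 on the higher side (below it), with colour clipped at 3. The female pair 9094 and 9093 is high for Asgr1, Fgfr2, Chst11 and Tenm4, and Chga is low in 9361 and 9100.

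The 6 alpha-GalNAc sialyltransferases, which share their reaction with the targeted enzyme or act on closely related acceptors, gave 0 members past the test in either direction. Their median difference was 0.15, against -0.01 over all named probe sets, and 5 of 6 were positive, against 46.4% of all. The differences were -0.07 ± 0.22 for St6galnac1, 0.20 ± 0.17 for St6galnac3, 0.15 ± 0.16 for St6galnac4, 0.15 ± 0.18 for St6galnac5 and 0.05 ± 0.16 for St6galnac6. St6galnac1, the other enzyme that sialylates unextended GalNAc on proteins, read 4.33, 4.73 and 3.95 in WT and 4.23, 4.12 and 4.43 in KO. St6galnac6, which acts on gangliosides, read 7.68 to 7.91 in WT and 7.63 to 8.09 in KO. In all 6 the genotypes overlapped, and the differences were no larger than 2 standard errors.

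The other sialyltransferases had 13 measured members of 14, 0 of them called and 9 lower, with a median of -0.03. St3gal3 had the smallest p, at -0.36 ± 0.21, followed by St8sia2 at 0.20 ± 0.17 and St3gal1 at -0.26 ± 0.27. St3gal5, which makes the ganglioside precursor GM3, differed by 0.00 ± 0.20. Among 10 genes of sialic acid synthesis and removal, Neu1, the lysosomal sialidase, differed by -0.39 ± 0.21, Renbp by -0.25 ± 0.16 and Cmah, which hydroxylates sialic acid, by 0.28 ± 0.22. Cmas, which activates sialic acid for transfer, differed by -0.07 ± 0.16. None of these passed the test.

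Enzymes that start and extend mucin-type O-glycans gave 0 calls. The 19 measured polypeptide GalNAc transferases had a median of 0.00, with Galnt14 at 0.50 ± 0.24, Galntl5 at -0.33 ± 0.15 and Galnt1, which starts O-glycans in many tissues, at 0.17 ± 0.17. Galntl5 was the single member of these 19 without overlap between the genotypes, a pattern found in 7.28% of all named probe sets. Its thyroid mean of 3.48 lay below the 25th percentile of all values, 4.21. C1galt1, which adds the galactose of core 1, differed by -0.14 ± 0.22, and its chaperone C1galt1c1 by -0.03 ± 0.21. The branching enzymes Gcnt1 and Gcnt3 differed by 0.00 ± 0.23 and -0.08 ± 0.18, the core enzyme B3gnt6 by -0.31 ± 0.21, and B3gnt3, which extends core 1 with N-acetylglucosamine, by 0.29 ± 0.17. B3gnt3 read 4.74 to 5.09 in WT and 5.19 to 5.34 in KO, without overlap. A second probe set of Gcnt3 read 0.19 ± 0.17, opposite in sign to the first.

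Of the 9 measured beta-GalNAc transferases 8 had positive differences, the median was 0.16, 0 passed the test, and 1 (B4galnt1) had an unadjusted p under 0.05. Of all named probe sets 46.4% were positive, and 1.46% were higher at that level. B4galnt4 differed by 0.31 ± 0.16 and had no overlap between the genotypes. B4galnt3 differed by 0.24 ± 0.17 and B3galnt2 by 0.14 ± 0.17. The medians of the list within the pairs were 0.15, -0.04 and 0.26, so the pair 9099 and 9100 differed in sign from the others.

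Genes of glycan breakdown and sugar transport had mostly negative differences, with 28.0% and 21.1% positive, against 46.4% of all named probe sets. Of 25 lysosomal glycan-degrading genes, 18 were lower in KO, the median was -0.15, and Glb1 and Manba (-0.51 ± 0.22), a beta-mannosidase, had an unadjusted p under 0.05. The pair medians were 0.01, -0.09 and -0.14. Psap, the precursor of the saposins that help lysosomal enzymes reach lipids, differed by -0.29 ± 0.17. Of 19 nucleotide sugar transporters, 15 were lower, the median was -0.10, and Slc35c1 alone had an unadjusted p under 0.05. Slc35e4 differed by -0.35 ± 0.20 and Slc35b1 by -0.11 ± 0.18. No member of either list passed the test. Over all named probe sets 2.91% were lower at that unadjusted level, and the split of higher and lower turned with centring.

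**Figure D4:**
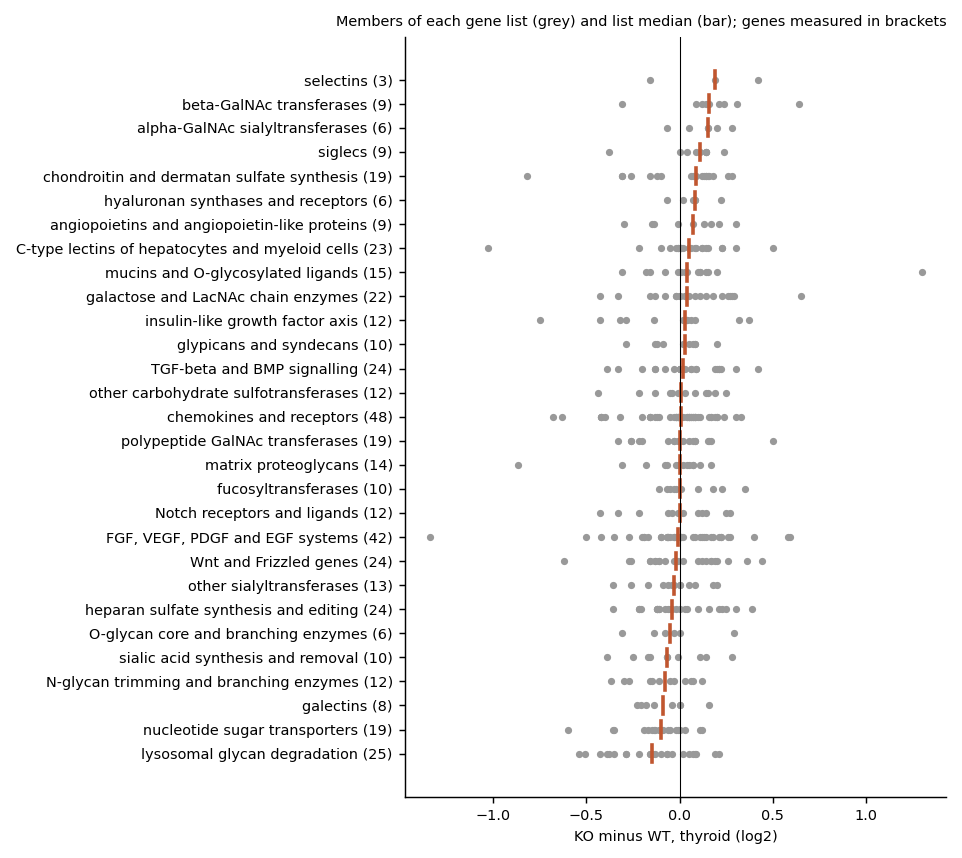
KO minus WT difference in thyroid (log2, x axis) of every measured member (grey points) and the median (bar) of 29 gene lists with at least 3 measured genes, with the number measured in brackets. Medians run from -0.15 for lysosomal glycan degradation to 0.19 for selectins.

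Other carbohydrate-building lists stayed close to the overall median. Galactose and N-acetyllactosamine chain enzymes had a median of 0.04 over 22 genes, with B3gnt9 at 0.65 and Gcnt2, which branches these chains, at -0.43 ± 0.18. N-glycan trimming and branching enzymes had a median of -0.08 over 12 genes, with Ganab at -0.37 ± 0.16, Man2a1 at -0.30 ± 0.19 and Mgat1 at -0.15 ± 0.16. The 10 fucosyltransferases had a median of 0.00, with Fut11 at 0.35 ± 0.20, Fut1 at 0.23 ± 0.16 and Fut8, which adds the core fucose of N-glycans, at -0.11 ± 0.19. None of them passed the test.

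Sulfated proteoglycans and their enzymes gave 0 calls as well. Heparan sulfate genes had a median of -0.04 over 24 genes, with Hs6st1 at -0.36 ± 0.19, Ndst4 at 0.30 ± 0.17 and Ext2 at -0.04 ± 0.18. Chondroitin and dermatan sulfate genes had a median of 0.09 over 19 genes, with Xylt1, which starts the chain, at 0.26 ± 0.16. Ust, a sulfotransferase acting on iduronic acid, differed by -0.31 ± 0.19 with the probe set that represents it and by -0.47 ± 0.16 with a second. Chst5 differed by -0.44 ± 0.22. Besides Fmod, the matrix proteoglycans included Agrn at -0.31 ± 0.17 and Dcn, the collagen-binding decorin, at -0.01 ± 0.18, with a median of 0.00 over 14 genes. Glypicans and syndecans had a median of 0.03 over 10 genes, with Sdc4 at -0.29 ± 0.18 and Gpc1 at -0.12 ± 0.21.

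No lectin passed the test without the replicate block, and with it Asgr1 did (limma adjusted p = 0.0448). Of 23 measured C-type lectins of hepatocytes and myeloid cells, 16 were positive, the median was 0.05, and Asgr1 alone had an unadjusted p under 0.05. Clec4a3 differed by 0.50 ± 0.25 and Mrc1, the macrophage mannose receptor, by 0.30 ± 0.24. Where 46.4% of all named probe sets were positive, 8 of 9 siglecs were, with a median of 0.11. The exception was Mag, the myelin-associated siglec, which read 5.84, 6.03 and 5.68 in WT and 5.40, 5.35 and 5.67 in KO, a gap of 0.01 between the nearest arrays. Cd22 differed by 0.14 ± 0.20 and Siglech by 0.24 ± 0.26. The other probe sets of Siglech read 0.13 ± 0.18 and 0.08 ± 0.24. Galectins had a median of -0.09 over 8 genes, with Lgals3 at -0.23 ± 0.20 and Lgals1 at -0.18 ± 0.16. The selectins Selp and Sele differed by 0.42 ± 0.20 and 0.19 ± 0.18.

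Signalling lists had medians between -0.02 and 0.03. The FGF, VEGF, PDGF and EGF systems had a median of -0.01 over 42 genes, with Fgfr2 lowest and Hbegf at -0.50 ± 0.23. The insulin-like growth factor axis had a median of 0.03 over 12 genes, with Igfbp6 at 0.32 ± 0.17 and Igfbp4 at -0.32 ± 0.18. The other probe sets of Igfbp4 read closer to no difference, at -0.04 ± 0.18 and -0.13 ± 0.18. Igfbp6 read 10.35 to 10.74 in WT and 10.86 to 10.96 in KO, without overlap. TGF-beta and BMP signalling included the receptors Bmpr2 at 0.42 ± 0.20 and Tgfbr3 at -0.33 ± 0.16. Notch1 differed by -0.43 ± 0.22, and the Wnt ligand Wnt5a by 0.44 ± 0.23.

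Chemokines and their receptors had a median of 0.01 over 48 genes, and 4 had an unadjusted p under 0.05, all lower in KO, where 2.91% of all named probe sets were lower at that level and the split of all probe sets turned with centring. Ccl21a, which draws lymphocytes and dendritic cells into lymphoid tissue, read 9.90, 9.36 and 10.21 in WT and 9.39, 8.54 and 9.51 in KO, a difference of -0.68 ± 0.25. Cx3cl1 and Ccl7 each differed by -0.42 ± 0.17. Each KO array was below its pair for these 3 genes, and the genotypes overlapped. The fourth, Cxcl10, differed by -0.40 without overlap. The other 4 measured markers of lymph node vessels differed by 0.01 (Glycam1), 0.10 (Madcam1), 0.08 (Chst4) and -0.63 (Cxcl13).

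Markers of other cells that a thyroid piece can hold gave 0 calls. The 5 endothelial markers differed by -0.08 to 0.42, the 7 markers of macrophages and dendritic cells by -0.02 to 0.30, the 5 of B cells by -0.16 to 0.17 and the 3 of T cells and thymus by -0.08 to 0.15. Of the salivary and airway markers, Prol1 differed by 1.30 ± 0.64, Muc5b by -0.01 and Muc1 by -0.18, and the Prol1 value came from KO female 9093, at 6.95. Acan, the cartilage proteoglycan aggrecan, differed by -0.08 ± 0.21. Fat was read by Angptl4 at -0.30 ± 0.21 and Lgals12 at 0.00 ± 0.17. No cell type marker other than Chga, Fmod and Ccl21a had an unadjusted p under 0.05.

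The largest ranges within a genotype mostly followed sex or single animals. They belonged to Chga, Asgr1, Cxcl13, Fgfr2, Prol1, Chodl, Papss2 and Ppbp. Cxcl13, the chemokine of B cell follicles, read 4.64, 6.92 and 9.15 in WT and 3.83, 4.95 and 10.04 in KO. Chodl, a membrane lectin, read 7.76, 6.76 and 5.56 in WT and 8.15, 6.32 and 4.56 in KO, in the same order of animals in both genotypes. Ppbp, a platelet chemokine, read 6.64 in KO male 9100 and 3.79 to 5.24 in the others.

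The sex term of the same model, examined after the values were seen, gave more calls than genotype did. Of 962 probe sets, 42 were called (4.37%), 34 of them higher (3.53%) and 8 lower (0.832%) in females. For all 34, the female of each genotype read above both males of that genotype. The test on these same arrays selects for that pattern, so it is no further support. With 1 female per genotype, and both in 1 pair, sex and that pair cannot be told apart. Without 1 animal at a time the count was 13 without 9094, 10 without 9093, 17 without 9099, 18 without 9362, 51 without 9100 and 30 without 9361. In lymph node of the same animals 0 of 962 were called (limma, 12 at an unadjusted p under 0.05, 1.25%), and the difference between the tissues was not tested. The lymph node array of the WT female, 9094, stood apart from the rest, as described below.

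Asgr1 had the largest female minus male difference, at 5.83 ± 0.21 (limma adjusted p = 4.47e-07, 2 females and 4 males). Cxcl13 differed by 4.51 ± 0.66, Fgfr2 by 2.69 ± 0.27 and Papss2, which makes the sulfate donor of all sulfotransferases, by 2.61 ± 0.21. Esm1, an endothelial proteoglycan, read 3.92 to 4.20 in males and 6.39 and 6.69 in females. Il18r1, a chain of the interleukin 18 receptor, read 3.80 to 4.30 in males and 6.42 and 6.34 in females. Esm1 and Il18r1 differed between genotypes by 0.11 ± 0.17 and 0.21 ± 0.17, whereas Asgr1, Fgfr2, Chst11 and Tenm4 were among the genes with the smallest p for genotype. Among the genes lower in females were St3gal5 at -1.01 ± 0.21 and Chodl at -2.19 ± 0.48.

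**Figure D5:**
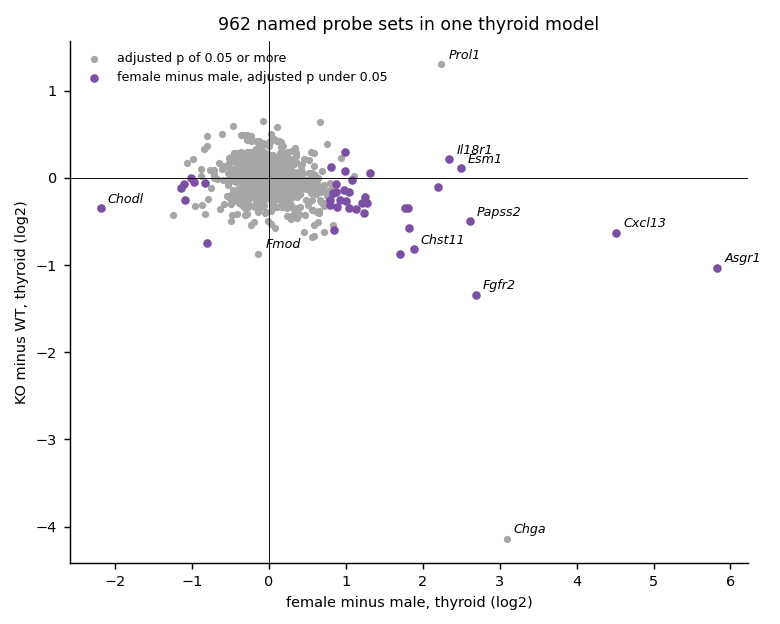
Female minus male (x axis) against KO minus WT (y axis) difference in thyroid, both log2 and from one model, for 962 named probe sets, with the 42 that passed the test for sex in colour. Asgr1 lies far right at 5.83 and -1.03, while Chga lies at 3.09 and -4.14.

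The KO effect in thyroid was set against that in lymph node of the same 6 animals. Brain of this line also has an array from each of them and was not used for this comparison. No probe set of 962 (0%) passed the test of the difference (limma, animal as random block), 44 had an unadjusted p under 0.05 (4.57%), and the smallest adjusted p was 0.882. That count was 16 without 9093 or without 9094, 24 without 9361 and 115 without 9099. In lymph node alone the KO minus WT comparison gave 0 calls and 33 at an unadjusted p under 0.05 (3.43%). Mcoln3, a cation channel of endosomes and lysosomes, had the smallest p: its KO minus WT difference was -0.39 in thyroid and 1.38 in lymph node. Il27ra differed by 0.05 and 0.95, B3gnt9 by 0.65 and -0.33, Slc35f2 by -0.36 and 0.37, and Fmod by -0.87 and 0.29, in thyroid and lymph node. Clec18a differed by 0.47 and -0.36, Csgalnact1, which starts chondroitin chains, by 0.16 and -0.71, and Ccl24 by 0.10 and -0.54. The WT lymph node array of 9094 stood apart from the other 5: it read 7.98 for Cd2 against 10.12 to 10.60, and 8.60 for Lgals12 against 4.27 to 6.69. It also read lowest for Il27ra, at 6.92 against 8.17 to 8.97, and for Fmod, at 5.62 against 6.35 to 6.61. Without animal 9094 the thyroid minus lymph node difference went from -0.90 to -0.55 for Il27ra and from -1.16 to -0.60 for Fmod.

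Chga differed by -0.13 in lymph node, and the thyroid minus lymph node difference was -4.01 ± 1.42 (limma adjusted p = 0.882). Without female 9093 or 9094 it was -6.04 ± 0.75 and was the 1 probe set called (adjusted p = 0.0397). St6galnac2 differed by -0.17 in lymph node and 0.28 in thyroid.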

How the data were processed

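The deposited table holds log2 values of 1246 probe sets on 60 custom Affymetrix arrays, summarised by the authors with RMA, per the submitters' processing notes; whether all arrays were normalized together is not given in the sources used here. Values were used as deposited. Gene symbols were matched through RefSeq accessions for 962 probe sets (284 had none); a gene with several was represented by that with the highest mean. The animal was the replicate, and p-values measure the spread between animals; the number of arrays limits the precision. The labels give sex but not whether animals shared a litter.

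KO and WT thyroid were compared with limma 3.58.1 in R 4.3.3 (lmFit and eBayes, 2-sided, sex as covariate, Benjamini-Hochberg over 962 probe sets). The difference from lymph node was an interaction contrast with sex per tissue and animal as random block (correlation 0.035). The procedure was tested on simulated data. Neighbouring animal numbers were checked as pairs: deviations from genotype means correlated at 0.53 to 0.67 within pairs and at -0.52 to 0.04 otherwise. Deviations cancel within a genotype by construction, so a positive value within a pair forces negative values elsewhere, and the contrast is partly arithmetic. Lists are described by counts and medians, with no set test. Named genes were St6galnac2, called genes, the 12 smallest p in each direction, the 8 largest ranges within a genotype, the 8 smallest p against lymph node, all measured sialyltransferases of the alpha-GalNAc class, O-glycan core enzymes and cell markers, and for other lists up to 3 members by p and the brightest; Esm1 and Il18r1 were added after their values were seen, some list members are given by range, and 1 is not reported here. Members, lists and tests were chosen with earlier results of these data known. Alternatives covered sex, pairs, probe sets, a low-value filter, scaling, array weights, spread and each animal left out.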

Additional observations from a re-analysis of the deposited data

Results flagged for a closer look

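The KO minus WT difference of Prol1, a proline-rich secreted protein of lacrimal and salivary glands, differed between females and males by 3.97 ± 0.39 (limma genotype by sex term, adjusted p = 0.00839, 1 of 962 probe sets called and 15 at an unadjusted p under 0.05). It read 6.95 in KO female 9093, 2.55 and 2.88 in the KO males, 2.67 and 2.81 in the WT males and slightly more than these males in the WT female, so the call rests on 1 array and the females have no replicate within a genotype. Lymph node of WT male 9362 read 11.08, the 7 mammary gland arrays had a median of 9.74, and the highest of 8 thymus arrays read 13.51. Of the 12 markers of salivary and airway epithelium 3 were measured, and Muc5b and Muc1 differed by -0.01 and -0.18 between the genotypes. In 9093 they read 5.72, inside the range of the other arrays, and 5.06, just below it, and the part of such tissue in the Prol1 value was not tested.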

How the results depend on the processing

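No probe set was called without a sex covariate, with all probe sets, the filter on low values, centring, a second quantile normalization, array weights, trend and robust moderation or spread shared with lymph node. The replicate block of paired numbers called 1, the block with centring called 7, and leaving out an animal called 0 to 2. At an unadjusted p under 0.05 there were 20 without the sex covariate, 82 with the pair block, 72 with array weights, 90 with the block and centring, and 29 to 58 without 1 animal, against 42. For the difference from lymph node, leaving out an animal called 0 to 1 and gave 16 to 115 at an unadjusted p under 0.05, and the animal as a fixed replicate block gave 0 and 32. The count called for sex ran from 10 to 51 without 1 animal and was 33 with centring. The Prol1 difference reversed to -0.02 without 9093 or 9094, where both females drop out of the comparison, and was 1.77 at most, without 9361. That of Cxcl13 reversed to 0.24 without 9099 and was -1.39 without 9094. The St6galnac2 difference kept its sign throughout, at 0.21 to 0.37 without 1 animal.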
